A study of Mus musculus with 10 samples.

Results

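The genes described here encode the protein kinases of the mitogen-activated protein kinase (MAPK), protein kinase A (PKA), protein kinase C (PKC) and mTOR pathways, with their regulatory subunits. They were chosen by gene name alone: names beginning Mapk and a digit, Map2k, Map3k, Map4k, Prkc, Prka followed by a subunit letter, Akt, Rps6k, Gsk3, Pik3 or Tsc with 1 or 2, plus Mtor, Rptor, Cdk5 and Pkia. The rule found 75 of the 6147 genes in the deposited table, and 74 of them had a mean of at least 1 TPM (transcripts per 1000000, a level scaled for transcript length and library size) and were tested. The exception was Mapk15, which had between 0.053 and 2.14 TPM in the 10 libraries. The pattern also took in 6 subunits of AMP-activated kinase (AMPK), 4 MAPK-binding proteins, and 4 TSC22 domain genes, which are transcription regulators and not kinases, so 71 members remained without the last. All samples were whole neocortex of wild-type CD1 mice, an outbred strain, and the labels name no allele or agent in any group. The groups were 4 embryonic ages in days (E12.5, E14, E15.5 and E17) and the day of birth (P0), each with 2 libraries described as biological duplicates. RNA was taken from a cleared lysate of frozen tissue and made into polyadenylated, strand-marked libraries, and how many animals went into a sample is not stated in the labels. The comparisons ask how the levels of these kinases moved across the period in which the neocortex makes its neurons.

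As background, PKA is a tetramer of catalytic and regulatory subunits: cyclic AMP binds the regulatory subunits and frees the catalytic ones, and Pkia is a small protein that blocks free catalytic subunits. MAPK cascades pass phosphate from a MAP3K to a MAP2K to a MAPK, with ERK, JNK and p38 as the main branches. PKC enzymes respond to lipid second messengers, and the atypical ones act in cell polarity. PI3K and Akt carry growth factor signals to mTORC1, a complex of Mtor and Rptor, which drives the S6 kinases, and the Tsc1 and Tsc2 proteins hold it back. In the developing neocortex these kinases act in progenitor polarity, migration, axon growth and synapse formation.

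The neocortex markers Tbr1, Emx1, Neurod2 and Bcl11b, 4 of 9 on the list, summed to between 561 and 973 TPM per library. The genes of the table together held 68.9 to 71.7% of the 1000000 TPM of each library, and no read counts were used, so the depth behind the values is unknown here. Markers of dividing progenitors (7 of 8 genes) went from 1107 and 1145 summed TPM at E12.5 to 128 and 130 at P0. Neuron markers (5 of 6) went from 1360 and 1427 to 6880 and 7025. Markers of blood and of tissue outside the cortex were high at E12.5 and E14 and low later. Erythroid genes (3 of 9) summed to 4323 and 4494 TPM at E12.5, 1975 and 1880 at E14, and between 2.04 and 9.84 in the 6 later libraries. Most of the early sum was 1 globin gene, Hbb-y, at 4268 and 4429 TPM at E12.5. Slc4a1, the gene of the 3 that is no globin, went from 4.54 and 4.15 TPM at E12.5 to 0.173 and 0.155 at P0. Ttr, the only choroid plexus marker of 4 in the table, was at 438 and 293 TPM at E12.5, 1379 and 1491 at E14, and between 2.93 and 5.14 later. Meningeal genes (5 of 5) summed to 173 and 173 at E12.5, 111 and 106 at E14, and 2.22 to 6.63 later. No gene of these lists was at 0 in all libraries. The part of these cell types in the results below was not tested, and in whole tissue fewer cells of a type and less RNA per cell cannot be told apart. E17 replicate 1 stood apart from its duplicate: 65 of the 74 tested members were higher in replicate 1, by a median of 0.21 log2 units, against a median of 0.16 over all 6048 tested genes.

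Between E12.5 and P0, 5 of 7 PKA genes and 5 of 7 PKC genes rose, and 1 of each fell. Of the 74 tested members, 32 rose and 22 fell, in limma's test on log2(TPM + 1) with adjusted p under 0.05 over all 6048 genes, and 20 did not pass. In the same comparison 78.2% of all tested genes were called, 27.1% higher and 51.0% lower, against 43.2% and 29.7% of the members. The median change was 0.10 log2 units for the members and -0.27 for all tested genes, so a member at 0 stood above the middle gene of the table. When libraries were rescaled to remove that shift, 40 members rose and 13 fell with median-of-ratios scaling, where 37.9% of all genes were called higher and 37.7% lower. With quantile normalization 41 rose and 13 fell, against 36.6% and 40.0%. Of the called members, 15 rose and 3 fell by at least 1 log2 unit, against 11.1% and 20.0% of all tested genes, and the fallers were Pik3c2a, Mapk1ip1l and Map2k6. In 70 of 74 members the E12.5 and P0 libraries did not overlap, against 90.9% of all tested genes. Over the 5 stages together 53 members changed in limma's F test, 71.6% against 82.9% of all tested genes. Of the 54 members called between E12.5 and P0, 35 kept their call and direction under all 20 alternative settings, and Prkch did so under the 19 in which it was tested. Of the 20 not called, 19 were called in at least 1 setting, Prkcd and Pik3c3 only with the sign turned. Fold changes on this scale understate the change of genes at low levels.

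**Figure D1:**
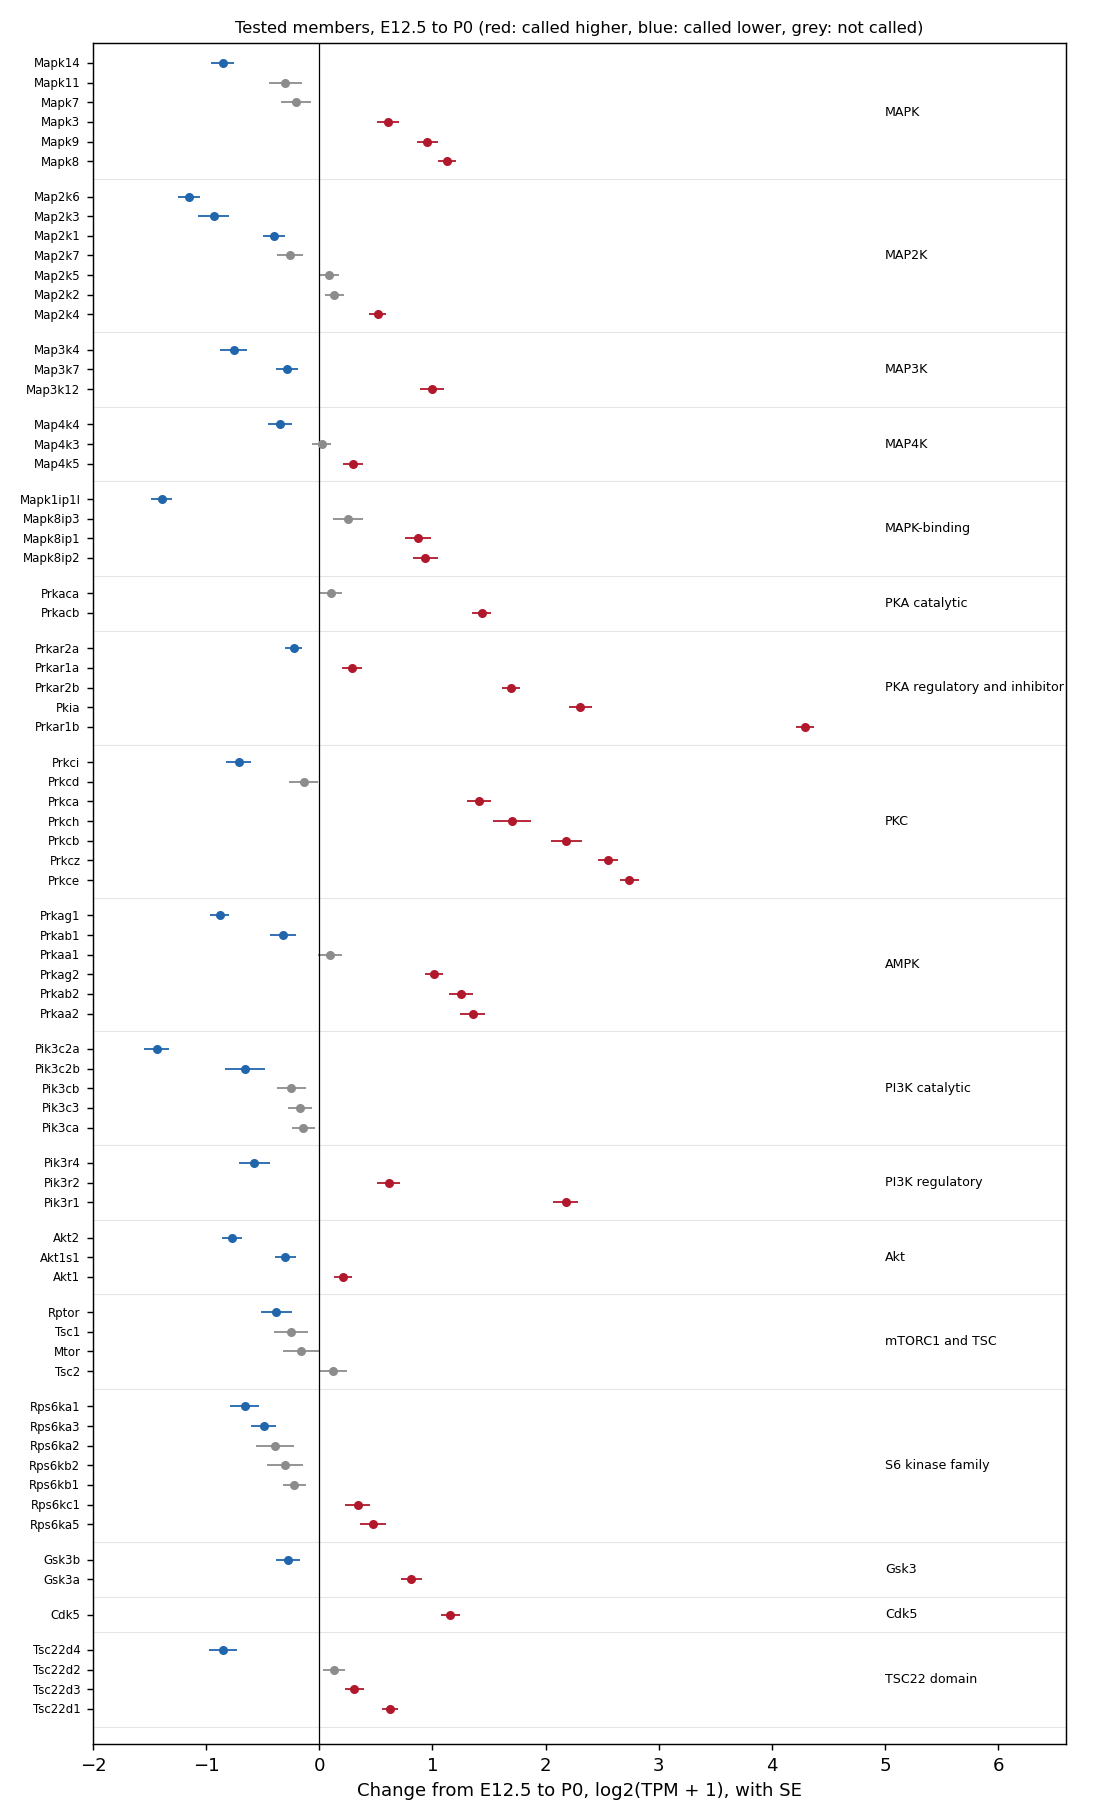
Change from E12.5 to P0 in log2(TPM + 1) for 72 of the 74 tested members, grouped by role, with the standard error as a bar (2 libraries a stage, spread shared over 10 libraries). Red points are called higher, blue lower and grey neither; Prkar1b stands furthest to the right at 4.29, and only the PKA and PKC groups hold points beyond 2 besides Pik3r1.

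The 4 regulatory subunits of PKA diverged. Prkar1b, the type I beta subunit, which is known from neurons, made the largest rise of all members, while its paralog Prkar1a, found in most cells, moved little. Prkar1b (ENSMUSG00000025855, reverse strand, chr5:139017306-139150001, GRCm38) was at 20.8 and 22.5 TPM at E12.5, 37.8 and 35.2 at E14, 169 and 184 at E15.5, 265 and 255 at E17, and 451 and 434 at P0. Each stage was above the one before it in both libraries, and the level rose by 4.29 ± 0.079 (adjusted p = 1.84e-11), a 20.4-fold ratio of mean TPM. Prkar1a was at 381 and 379 TPM at E12.5, 389 and 384 at E14, 449 and 470.3 at E15.5, 406 and 445 at E17, and 429 and 505 at P0. It rose by 0.29 ± 0.089 (adjusted p = 0.0104), a call that was lost without E12.5 replicate 2 or without P0 replicate 2 (adjusted p up to 0.0896 over 20 alternatives). Prkar2b, the type II beta subunit of neurons and fat, was at 111 and 109 TPM at E12.5, 134 and 135 at E14, 292 and 289 at E15.5, 304 and 339 at E17, and 337 and 382 at P0. Its libraries at E15.5 and later all lay above both earlier stages, and it rose by 1.70 ± 0.082 (adjusted p = 4.28e-09). Prkar2a, the widely used type II alpha subunit, was at 152 and 149 TPM at E12.5, 124 and 129.8 at E14, 113 and 113 at E15.5, 121 and 114 at E17, and 123 and 135 at P0. It fell by 0.23 ± 0.075 (adjusted p = 0.0162) on the deposited scale, turned to a change of 0.048 after median-of-ratios scaling, and lost its call in 4 other alternatives.

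The log2 ratio of Prkar1a to Prkar1b went from 4.07 ± 0.085 (SD, n = 2) at E12.5 to 0.074 ± 0.20 at P0, near equal levels (exact p = 0.00106, adjusted p = 0.00529 in the exact permutation test over 945 splits, adjusted over 20 pairs of related genes). That p is the smallest the design allows. The test asks, here and for the pairs below, whether the ratio differed among the 5 stages. Its p is not that of the change from E12.5 to P0. The ratio of Prkar2a to Prkar2b moved by -1.92 (exact permutation p = 0.00952, adjusted p = 0.0136). Prkar1b made up 3.27 ± 0.206% (SD, n = 2) of the summed TPM of the 4 regulatory genes at E12.5 and 31.7 ± 2.72% at P0. Over the same span Prkar1a went from 57.4 ± 0.0700% to 33.4 ± 1.88%.

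The promoter windows of these paralogs are shown because the pair differed most in its course. Each is 300 bases from RefSeq (GRCm38.p6), 250 before and 50 after the listed start, on the gene's strand, with GC boxes (GGGCGG or its reverse complement CCGCCC) and CCAAT boxes (CCAAT or ATTGG) in capitals. The windows lie at chr11:109649113-109649412, forward strand, and chr5:139149952-139150251, reverse strand, with starts 42 and 0 bases from the GENCODE gene start. RefSeq lists 6 windows for Prkar1a and 5 for Prkar1b, and for each gene the one nearest that start was taken.
Prkar1a: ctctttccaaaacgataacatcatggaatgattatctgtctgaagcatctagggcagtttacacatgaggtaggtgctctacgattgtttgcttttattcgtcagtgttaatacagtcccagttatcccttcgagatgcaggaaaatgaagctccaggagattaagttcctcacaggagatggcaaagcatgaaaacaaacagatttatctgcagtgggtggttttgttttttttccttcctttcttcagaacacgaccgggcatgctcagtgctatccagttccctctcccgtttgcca
Prkar1b: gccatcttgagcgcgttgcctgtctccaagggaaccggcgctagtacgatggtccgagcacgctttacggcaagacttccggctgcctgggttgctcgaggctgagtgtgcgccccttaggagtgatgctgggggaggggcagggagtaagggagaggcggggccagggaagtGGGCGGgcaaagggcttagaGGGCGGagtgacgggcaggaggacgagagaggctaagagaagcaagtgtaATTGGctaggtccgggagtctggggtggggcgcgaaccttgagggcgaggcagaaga
The Prkar1a window holds neither motif, and that of Prkar1b holds 2 GC boxes and 1 CCAAT box, none overlapping. Over all listed windows a GC box is in 4 of 6 for Prkar1a and 3 of 5 for Prkar1b, and a CCAAT box is in 1 and 3. Among the 60 members with a RefSeq window, 80% hold a GC box, against 70.2% of 4769 tested genes with a window chosen the same way and 35.7% of all 32851 windows of that length. A CCAAT box is in 36.7% of the members, 38.3% of the tested genes and 37.4% of all windows. The cyclic AMP response element TGACGTCA is in 0 of the 60, in 3.63% of the tested genes and in 1.79% of all windows. The median content of G and C is 67.2% in member windows, 62% in those of tested genes and 52.7% in all windows, and the part of base content in the GC box share was not tested.

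Of the catalytic subunits Prkacb rose and Prkaca did not pass the test. Prkacb, the beta catalytic subunit, was at 143 and 146 TPM at E12.5, 158 and 165 at E14, 255 and 263 at E15.5, 305 and 286 at E17, and 365 and 422 at P0. It rose by 1.43 ± 0.082 (adjusted p = 1.78e-08), and both P0 libraries lay above all others. Prkaca, the alpha subunit, was at 166 and 178 TPM at E12.5, 166 and 162 at E14, 164 and 169 at E15.5, 179.9 and 152 at E17, and 202 and 169 at P0, a change of 0.10 ± 0.10 (adjusted p = 0.382) whose libraries overlap across most stages. The annotation names a pseudogene of it, Prkaca-ps1, with which reads may be shared. Prkacb was 45.7 ± 0.956% of the catalytic pair at E12.5 and 67.9 ± 4.96% at P0 (SD, n = 2), and the log2 ratio of Prkaca to Prkacb moved by -1.33 (exact permutation p = 0.00423, adjusted p = 0.00705).

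Pkia, the inhibitor of the catalytic subunits, had the highest level of any member, a mean of 2658 TPM over the 10 libraries, with Prkar1a next at 424. Pkia (ENSMUSG00000027499, forward strand, chr3:7366669-7445366) was at 1113 and 1051 TPM at E12.5, 1229 and 1335 at E14, 2388 and 2424 at E15.5, 2974 and 3337 at E17, and 5171 and 5556 at P0. Neighbouring stages did not overlap at any step, and it rose by 2.31 ± 0.10 (adjusted p = 2.09e-09). It held 16.1 ± 0.769% of the members' summed TPM at E12.5 and 41.7 ± 0.353% at P0. The ratio of Pkia to summed catalytic TPM went from 3.42 ± 0.254 to 9.27 ± 0.204, while that of regulatory to catalytic TPM went only from 2.09 ± 0.0832 to 2.41 ± 0.0730. These are ratios of RNA, not of protein.

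**Figure D2:**
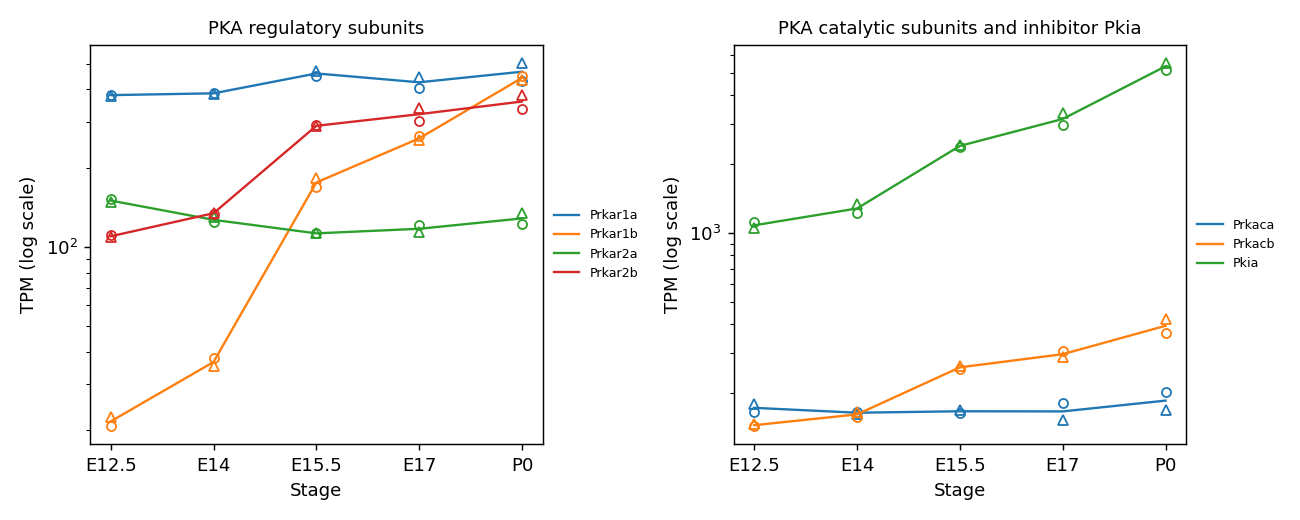
TPM on a log scale by stage for the PKA regulatory genes (left) and for the catalytic genes with the inhibitor Pkia (right); circles are replicate 1, triangles replicate 2, lines join stage means, and stages are evenly spaced. Prkar1b climbs from about 21 TPM to the level of Prkar1a at P0, and Pkia lies above both catalytic genes at each stage.

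Of the 7 PKC genes 5 rose and Prkci fell. The summed level of the 7 genes went from 139 and 141 TPM at E12.5 to 419 and 471 at P0. Prkce, an isoform that needs no calcium, was at 28.1 and 27.6 TPM at E12.5, 43.3 and 42.6 at E14, 109 and 109 at E15.5, 139.7 and 123 at E17, and 181 and 204 at P0. The libraries of each stage lay above those of the stage before, and it rose by 2.74 ± 0.087 (adjusted p = 1.42e-10) over the span (ENSMUSG00000045038, forward strand, chr17:86167785-86657919). The conventional, calcium-dependent pair Prkca and Prkcb took different paths. Prkca was at 10.2 and 10.5 TPM at E12.5, 12.7 and 12.6 at E14, 25.1 and 25.9 at E15.5, 38.7 and 33.2 at E17, and 27.2 and 31.5 at P0, highest at E17, and it rose by 1.41 ± 0.11 (adjusted p = 2.44e-07). Prkcb was at 11.4 and 12 TPM at E12.5, 12.2 and 12 at E14, 9.64 and 8.85 at E15.5, 23.7 and 20.4 at E17, and 49.3 and 65.3 at P0. Its lowest libraries were those of E15.5, after which it rose by 1.17 ± 0.13 (adjusted p = 0.000298) from E15.5 to E17 and rose by 1.33 ± 0.13 (adjusted p = 3.83e-05) from E17 to P0. The log2 ratio of Prkca to Prkcb was -0.16 ± 0.014 at E12.5, 1.37 ± 0.11 at E15.5 and -0.93 ± 0.14 at P0 (exact permutation p = 0.00106, adjusted p = 0.00529, the smallest p allowed). Prkch, another calcium-independent isoform, was at 2.55 and 2.92 TPM at E12.5, 2.32 and 2.75 at E14, 1.14 and 1.31 at E15.5, 3.32 and 5.15 at E17, and 9.94 and 12.6 at P0, also lowest at E15.5, and rose by 1.71 ± 0.17 (adjusted p = 2.25e-06) from E12.5 to P0. Its fall from E14 to E15.5, 0.67 ± 0.17 (adjusted p = 0.00659), came at levels near the filter of 1 TPM. Prkcd, of the same class, had between 9.42 and 13.5 TPM in the 10 libraries, a change of -0.14 ± 0.13 (adjusted p = 0.347).

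The atypical pair, which binds the Par polarity complex, exchanged order. Prkci was at 56.6 and 56.7 TPM at E12.5, 47.6 and 48.8 at E14, 38.3 and 38.6 at E15.5, 33 and 34.3 at E17, and 30.0 and 39 at P0. It fell by 0.71 ± 0.11 (adjusted p = 9.75e-05), and both E12.5 libraries lay above all later ones. Prkcz (ENSMUSG00000029053, reverse strand, chr4:155260129-155361361) was at 17.9 and 17.6 TPM at E12.5, 25.2 and 25.8 at E14, 60.1 and 61.9 at E15.5, 89.3 and 75.8 at E17, and 110.3 and 107 at P0. It rose by 2.55 ± 0.091 (adjusted p = 3.51e-10), with no overlap between neighbouring stages. The share of Prkcz in the pair's summed TPM was 23.8 ± 0.221% at E12.5 and 34.6 ± 0.0195% at E14, then 61.3 ± 0.336% at E15.5 and 76 ± 3.73% at P0. The table gives 1 value a gene, so short and full-length Prkcz transcripts cannot be told apart. Prkce and Prkcz both rose. The Prkce/Prkcz log2 ratio moved by 0.19, with its P0 libraries above those of E12.5. It did not pass the test (exact permutation p = 0.145, adjusted p = 0.171), which does not show that the rises were equal. The ratio passed only without P0 replicate 1, without P0 replicate 2 or with a pseudocount of 10 TPM.

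The windows of the atypical pair are shown for their opposite courses, with the same capitals. They lie at chr3:30995521-30995820, forward strand, and chr4:155361379-155361678, reverse strand, 24 and 67 bases from the GENCODE starts, and are the nearest of 1 and 3 listed windows.
Prkci: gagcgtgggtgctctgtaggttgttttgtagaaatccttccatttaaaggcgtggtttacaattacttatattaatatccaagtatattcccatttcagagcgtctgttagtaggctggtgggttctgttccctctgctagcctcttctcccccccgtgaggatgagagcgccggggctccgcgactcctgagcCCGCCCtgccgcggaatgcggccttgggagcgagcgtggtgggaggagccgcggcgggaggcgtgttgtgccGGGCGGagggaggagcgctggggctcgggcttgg
Prkcz: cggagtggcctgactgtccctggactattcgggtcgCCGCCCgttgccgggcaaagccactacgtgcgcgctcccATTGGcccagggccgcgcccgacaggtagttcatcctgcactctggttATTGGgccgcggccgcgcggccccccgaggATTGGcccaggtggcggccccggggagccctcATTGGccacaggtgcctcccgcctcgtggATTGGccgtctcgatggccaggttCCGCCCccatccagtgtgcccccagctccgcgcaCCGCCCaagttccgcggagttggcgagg
In these windows Prkci has 2 GC boxes and no CCAAT box, and Prkcz has 3 GC boxes and 5 CCAAT boxes, none overlapping. Over all listed windows a GC box is in 1 of 1 for Prkci and 2 of 3 for Prkcz, and a CCAAT box is in 0 and 1. The table does not show which start the RNA came from. A match describes letters only. Of 24 rising members with a window 21 held a GC box and 7 a CCAAT box, and of 19 falling members 13 and 9.

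**Figure D3:**
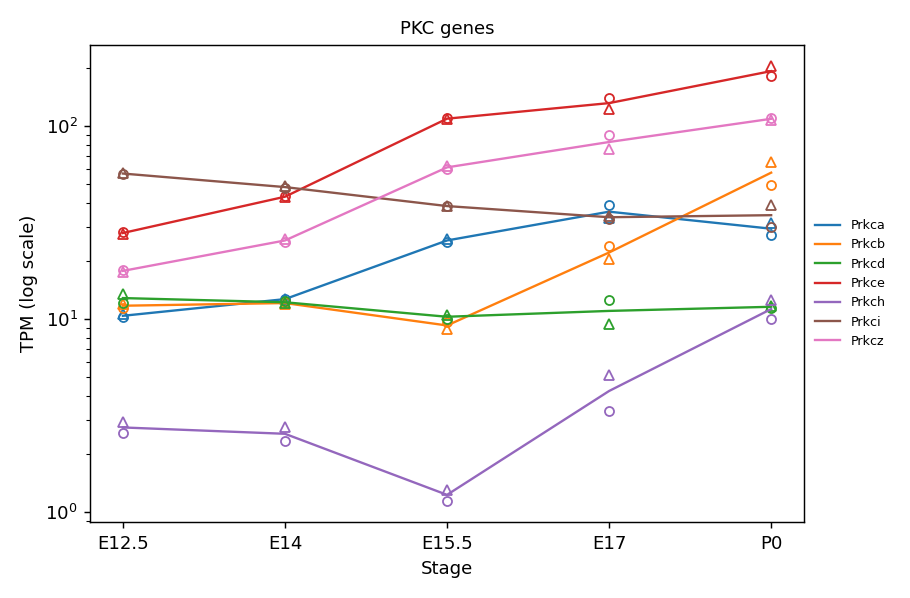
TPM of the 7 PKC genes by stage on a log scale, with circles for replicate 1, triangles for replicate 2, lines through stage means and stages evenly spaced. Prkci starts as the highest gene and is passed by Prkce and Prkcz at E15.5, and Prkcb and Prkch dip at E15.5 before they climb.

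The MAPK genes are given by branch, in groups of members formed by function after their values were known, so the counts by branch are a description only. Of 8 genes placed in the JNK branch 6 rose and 2 did not pass the test, against 27.1% of all tested genes called higher. Other members that also act above JNK were placed elsewhere. Map3k4, Map3k7 and Map4k4 fell, Map4k5 rose and Map4k3 did not pass the test, and they are described with the other groups. Mapk8, which encodes JNK1 (ENSMUSG00000021936, reverse strand, chr14:33377898-33447158), was at 150.3 and 141 TPM at E12.5, 175 and 179 at E14, 282 and 285 at E15.5, 283 and 281 at E17, and 300.4 and 339 at P0. It rose by 1.13 ± 0.077 (adjusted p = 8.49e-08), of which 0.68 came between E14 and E15.5. Mapk9, which encodes JNK2, was at 58.7 and 57.4 TPM at E12.5, 61.3 and 65.9 at E14, 81.5 and 80.6 at E15.5, 112 and 90.8 at E17, and 114 and 113 at P0, and rose by 0.96 ± 0.10 (adjusted p = 2.45e-06). Above them, the kinase Map2k4 was at 103 and 105 TPM at E12.5, 108 and 105 at E14, 110.4 and 105 at E15.5, 128 and 117 at E17, and 145 and 152 at P0 and rose by 0.52 ± 0.075 (adjusted p = 5.66e-05). The other JNK activator, Map2k7, was at 27.1 and 28.2 TPM at E12.5, 27.7 and 26.3 at E14, 29 and 27.1 at E15.5, 32.5 and 25.7 at E17, and 23 and 23 at P0, a change of -0.26 ± 0.11 (adjusted p = 0.0536). Map2k7 shares 35.2% of its exonic bases with another gene on the same strand. The ratio of Map2k4 to Map2k7 moved by 0.77 log2 units (exact permutation p = 0.00212, adjusted p = 0.00605). Map3k12, the dual leucine zipper kinase of axons, was at 23.3 and 24.9 TPM at E12.5, 30.1 and 29.8 at E14, 45.8 and 45.7 at E15.5, 59.6 and 47.4 at E17, and 48.6 and 49.6 at P0. It rose by 1.0 ± 0.11 (adjusted p = 3.9e-06) and shares 19.3% of its exonic bases. The scaffold genes Mapk8ip1 and Mapk8ip2, which hold JNK cascades together, rose by 0.87 ± 0.11 (adjusted p = 1.87e-05) and rose by 0.94 ± 0.11 (adjusted p = 9.51e-06) in that order. Mapk8ip2 was at 37.7 and 42 TPM at E12.5, 42.5 and 42.6 at E14, 61.8 and 62.7 at E15.5, 88.7 and 68.8 at E17, and 78.3 and 76.2 at P0. The third scaffold, Mapk8ip3, changed by 0.25 ± 0.13 (adjusted p = 0.103), which is no call, and shares 23.7% of its exonic bases.

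Of 5 genes placed in the p38 branch 4 fell, against 51.0% of all tested genes called lower. This count too depends on the placement. Map2k4 and Map3k12, which rose and can also act above p38, were counted with JNK. Map3k7, which fell and can act above both, was counted in neither branch. Mapk14, which encodes p38 alpha, was at 102 and 108 TPM at E12.5, 94.7 and 93.9 at E14, 64.8 and 64.4 at E15.5, 65.6 and 51.8 at E17, and 59.7 and 55.8 at P0. Its libraries at both early stages lay above all later ones, and it fell by 0.85 ± 0.10 (adjusted p = 1.14e-05). Mapk11, p38 beta, was at 45.4 and 46.2 TPM at E12.5, 46.1 and 47.9 at E14, 51.2 and 45.5 at E15.5, 57.2 and 43 at E17, and 42.4 and 32.2 at P0, a change of -0.30 ± 0.15 (adjusted p = 0.0762). The ratio of Mapk14 to Mapk11 moved by -0.55 (exact permutation p = 0.00212, adjusted p = 0.00605). Map2k6, the p38 activator (ENSMUSG00000020623, forward strand, chr11:110399122-110525522), was at 71.2 and 73.2 TPM at E12.5, 76.4 and 80.0 at E14, 69.1 and 65 at E15.5, 61.2 and 53 at E17, and 29.9 and 34.2 at P0. It fell by 1.15 ± 0.10 (adjusted p = 4.99e-07), with 0.81 of that between E17 and P0, and its P0 libraries lay below all others. Map2k3, which also acts on p38, fell by 0.93 ± 0.14 (adjusted p = 6.59e-05), from 29.6 and 30.8 TPM at E12.5 to 16.9 and 13.9 at P0. Map3k4, an upstream kinase known for p38 and JNK signalling, was at 14.5 and 15.1 TPM at E12.5, 11.4 and 12.3 at E14, 8.15 and 8.54 at E15.5, 10.7 and 8.45 at E17, and 8.34 and 8.40 at P0 and fell by 0.76 ± 0.12 (adjusted p = 0.00011). The ratio of summed Mapk8 and Mapk9 to summed Mapk11 and Mapk14 went from 1.42 and 1.28 at E12.5 to 4.06 and 5.14 at P0.

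In the ERK branch Mapk3 rose, Map2k1 fell and Map2k2 did not pass the test. Mapk3, ERK1, was at 86.6 and 94.8 TPM at E12.5, 101 and 100.3 at E14, 108 and 105 at E15.5, 128 and 113 at E17, and 151 and 128 at P0 and rose by 0.61 ± 0.10 (adjusted p = 0.000105). Map2k1, MEK1, was at 41.9 and 44 TPM at E12.5, 40.8 and 36.8 at E14, 25.2 and 26.6 at E15.5, 27.6 and 24.6 at E17, and 32.8 and 31.8 at P0, lowest at E15.5 and E17. It fell by 0.40 ± 0.10 (adjusted p = 0.00251), a call lost under both rescalings (adjusted p up to 0.173), and rose by 0.30 ± 0.10 (adjusted p = 0.0276) from E17 to P0. Map2k2, MEK2, was at 104 and 101 TPM at E12.5, 105 and 96 at E14, 98.3 and 91.2 at E15.5, 110.4 and 106 at E17, and 118 and 106 at P0, a change of 0.13 ± 0.084 (adjusted p = 0.167). The ratio of Map2k1 to Map2k2 moved by -0.53 (exact permutation p = 0.00529, adjusted p = 0.00814).

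**Figure D4:**
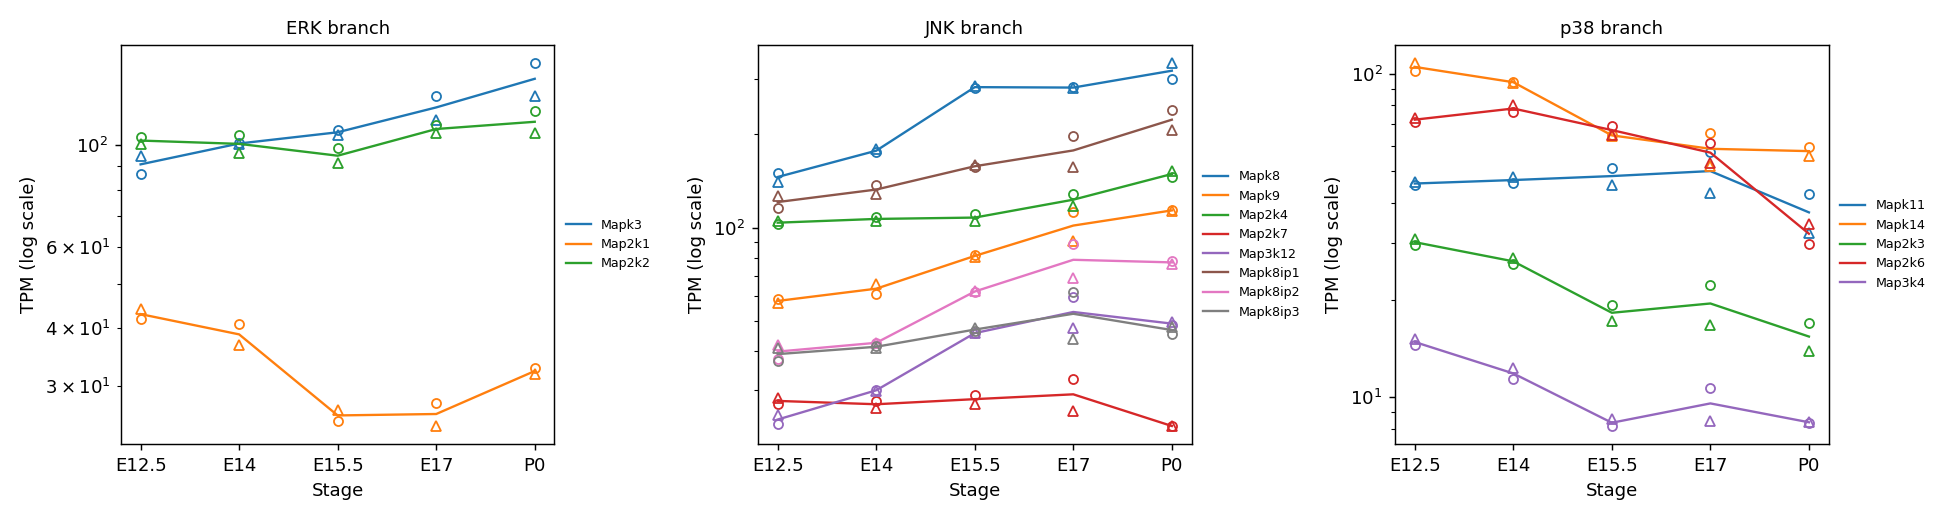
TPM by stage on a log scale, which differs between panels, for the ERK, JNK and p38 branches; circles are replicate 1, triangles replicate 2, lines join stage means and stages are evenly spaced. Lines for Mapk8 and Mapk9 climb and those for Mapk14 and Map2k6 descend, and the E17 circles lie above the triangles for most genes.

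The remaining MAPK genes were mixed. Map3k7, the TAK1 kinase of inflammatory and TGF-beta signalling, fell by 0.29 ± 0.10 (adjusted p = 0.0201), a call lost in 5 alternatives: both rescalings, either E12.5 library left out, and P0 replicate 1 left out (adjusted p up to 0.894). Among the MAP4K genes, upstream kinases of the JNK pathway, Map4k5 went from 27.7 and 26.3 TPM at E12.5 to 32.8 and 34.2 at P0 and rose by 0.30 ± 0.088 (adjusted p = 0.00827), a call lost without E12.5 replicate 2 (adjusted p up to 0.07). Map4k4 went from 174 and 179 TPM at E12.5 to 127 and 150.3 at P0 and fell by 0.35 ± 0.11 (adjusted p = 0.012). That call was lost after median-of-ratios scaling and without E12.5 replicate 2 or P0 replicate 1 (adjusted p up to 0.478). Mapk1ip1l, a MAPK-interacting protein, was at 328 and 344 TPM at E12.5, 286 and 274 at E14, 216 and 218 at E15.5, 199 and 163 at E17, and 122 and 133 at P0. Its stage mean went down at each step, it fell by 1.39 ± 0.094 (adjusted p = 7.89e-08) in all, and 11.1% of its exonic bases are shared with other genes. Map4k3, Mapk7 and Map2k5 did not pass the test. Mapk10, a further member of the family, was not analysed here.

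AMPK, the energy-sensing kinase, has an alpha, a beta and a gamma subunit, and in each the paralog numbered 2 rose. Prkaa2 was at 24.1 and 23.4 TPM at E12.5, 25.9 and 27.9 at E14, 40.4 and 40.8 at E15.5, 53.4 and 47.1 at E17, and 55.8 and 69.5 at P0 and rose by 1.35 ± 0.11 (adjusted p = 4.25e-07). Prkaa1 had between 22.3 and 28.0 TPM in the 10 libraries, a change of 0.095 ± 0.11 (adjusted p = 0.436). The log2 ratio of Prkaa1 to Prkaa2 moved by -1.26 (exact permutation p = 0.00106, adjusted p = 0.00529, the smallest p allowed). Prkab2 went from 30.9 and 26.9 TPM at E12.5 to 65.7 and 74.8 at P0 and rose by 1.25 ± 0.11 (adjusted p = 5.98e-07). Prkab1 went from 48 and 53.5 TPM at E12.5 to 41.8 and 38.9 at P0 and fell by 0.32 ± 0.12 (adjusted p = 0.0244), a call lost under both rescalings and without E12.5 replicate 2 or P0 replicate 2 (adjusted p up to 0.642). Prkag2 went from 34.4 and 35.8 TPM at E12.5 to 71 and 73.1 at P0 and rose by 1.02 ± 0.079 (adjusted p = 2.69e-07). Prkag1 was at 74.2 and 78.5 TPM at E12.5, 74.1 and 71.2 at E14, 58.9 and 56.7 at E15.5, 52.7 and 49.5 at E17, and 43.3 and 38.9 at P0. Its stage mean went down at each step and it fell by 0.88 ± 0.084 (adjusted p = 1.61e-06), but it shares 43.7% of its exonic bases with a gene on the opposite strand, and Prkag2 shares 14.5%. The libraries marked strand, but the strand setting used for counting is unknown here. The share of the paralog numbered 2 went from 49.4 ± 2.29% to 70.5 ± 1.05% for alpha, 36.3 ± 4.07% to 63.4 ± 3.29% for beta, and 31.5 ± 0.278% to 63.7 ± 2.19% for gamma (SD, n = 2).

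**Figure D5:**
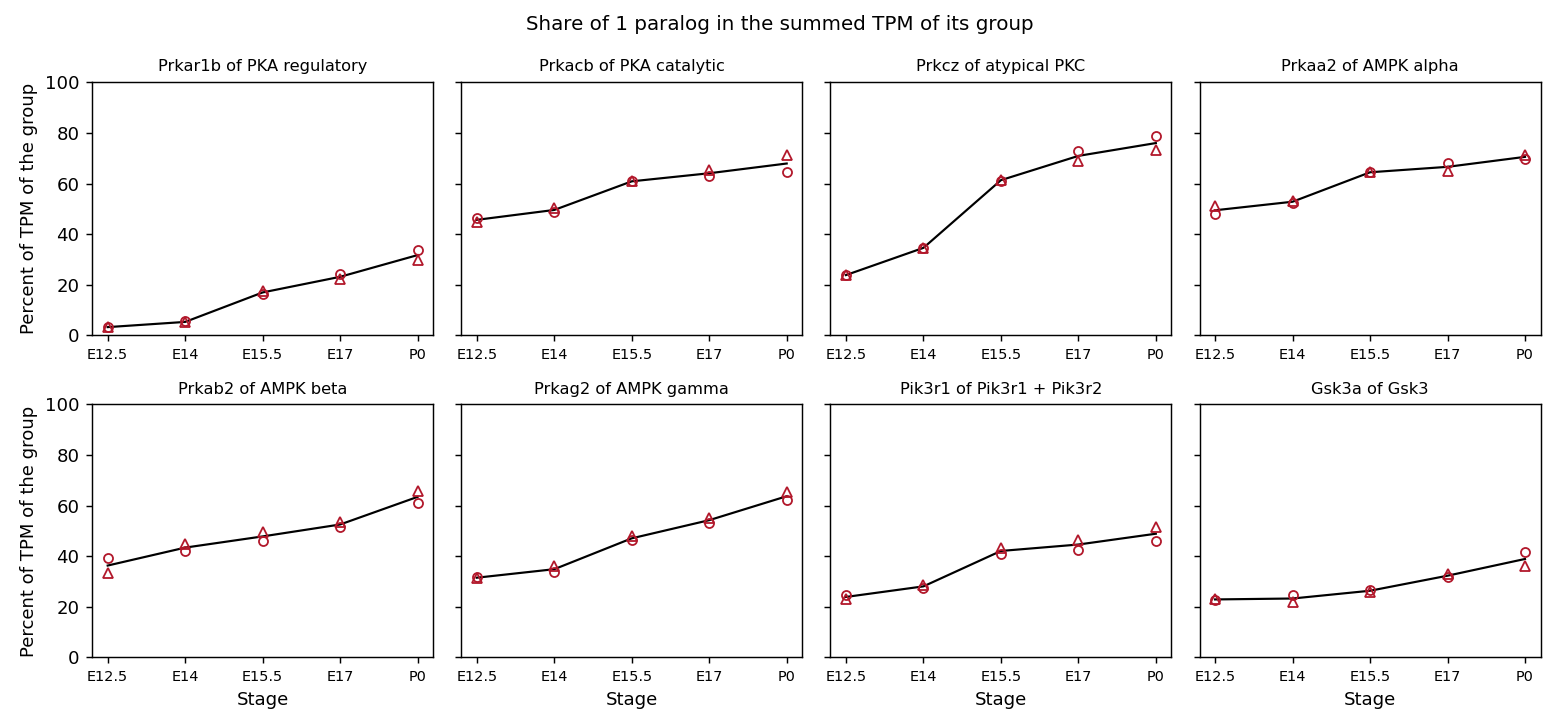
Percent of summed TPM taken by 1 paralog of its group at each stage, for PKA, atypical PKC, AMPK, PI3K regulatory and Gsk3 genes; circles are replicate 1, triangles replicate 2, the line joins stage means and stages are evenly spaced. In all 8 panels the P0 libraries lie above the E12.5 libraries, from 3.27% to 31.7% in the first.

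Of the PI3K genes, 2 of 3 regulatory ones rose and 1 fell, and 2 of 5 catalytic ones fell and 3 did not pass the test. Pik3r1, the p85 alpha adaptor (ENSMUSG00000041417, reverse strand, chr13:101680563-101768217), was at 23.7 and 22.6 TPM at E12.5, 30.4 and 28.7 at E14, 61.8 and 66.9 at E15.5, 77.1 and 73 at E17, and 95.8 and 123 at P0. It rose by 2.18 ± 0.11 (adjusted p = 6.44e-09), with 1.10 between E14 and E15.5. Pik3r2, p85 beta, was at 72.2 and 75.3 TPM at E12.5, 79.8 and 71.7 at E14, 89.4 and 87.8 at E15.5, 104 and 83.7 at E17, and 112 and 115 at P0 and rose by 0.61 ± 0.10 (adjusted p = 0.00015). The log2 ratio of Pik3r1 to Pik3r2 moved by 1.57 (exact permutation p = 0.00423, adjusted p = 0.00705). Pik3r4, which belongs to the class III complex of autophagy, went from 8.80 and 8.86 TPM at E12.5 to 5.63 and 5.58 at P0 and fell by 0.57 ± 0.14 (adjusted p = 0.0025), a call lost after quantile normalization (adjusted p up to 0.845). The class II kinase Pik3c2a was at 14.4 and 13.3 TPM at E12.5, 12 and 12.8 at E14, 6.69 and 6.42 at E15.5, 6.94 and 6.22 at E17, and 4.24 and 4.75 at P0. It fell by 1.44 ± 0.11 (adjusted p = 2.17e-07), the largest fall of any member, and 12.3% of its exonic bases are shared with another gene. Pik3ca, p110 alpha, was at 43.1 and 41.2 TPM at E12.5, 44.4 and 46.1 at E14, 48.6 and 48.4 at E15.5, 53.8 and 47.6 at E17, and 34.8 and 41.7 at P0. Its change over the span was -0.14 ± 0.10 (adjusted p = 0.217), though it fell by 0.40 ± 0.10 (adjusted p = 0.00965) from E17 to P0. Pik3cb, p110 beta, was at 8.89 and 9.40 TPM at E12.5, 10.5 and 11.2 at E14, 9.72 and 8.98 at E15.5, 9.73 and 8.18 at E17, and 6.66 and 8.52 at P0, a change of -0.25 ± 0.13 (adjusted p = 0.102). Both changed sign after quantile normalization.

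Of the Akt kinases, which act below PI3K, Akt2 fell and Akt1 rose. Akt2, best known from insulin signalling, was at 107 and 115 TPM at E12.5, 123 and 113 at E14, 101 and 101 at E15.5, 93.1 and 80.4 at E17, and 62.7 and 66.5 at P0. It fell by 0.77 ± 0.089 (adjusted p = 7.67e-06), and its P0 libraries lay below all others. The annotation names a pseudogene of it too, Akt2-ps, with which reads may be shared. Akt1 was at 316 and 348 TPM at E12.5, 347 and 332 at E14, 359.8 and 349 at E15.5, 391 and 372 at E17, and 399 and 368 at P0. It rose by 0.21 ± 0.079 (adjusted p = 0.0309). The Akt1 call was lost in 5 alternatives: quantile normalization, and leaving out E12.5 replicate 1, either E15.5 library or P0 replicate 1 (adjusted p up to 0.241). The ratio of Akt1 to Akt2 moved by 0.98 (exact permutation p = 0.00106, adjusted p = 0.00529). Akt1s1, the mTORC1 inhibitor also called PRAS40, fell by 0.30 ± 0.090 (adjusted p = 0.00973), a call lost under both rescalings and without E12.5 replicate 2 or P0 replicate 2 (adjusted p up to 0.802).

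Transcripts of mTORC1 and of the TSC complex moved little over the span. Mtor (ENSMUSG00000028991, forward strand, chr4:148448611-148557683) was at 14.3 and 15.8 TPM at E12.5, 13.6 and 13.8 at E14, 11.9 and 11.8 at E15.5, 18.1 and 11.7 at E17, and 12.9 and 13.9 at P0. The highest library was E17 replicate 1, and the change of -0.16 ± 0.16 (adjusted p = 0.376) turned positive under both rescalings. Rptor, the substrate-binding subunit, was at 18.5 and 21.8 TPM at E12.5, 18.8 and 18.2 at E14, 16.7 and 17 at E15.5, 23.7 and 17.3 at E17, and 14.8 and 15.7 at P0. It fell by 0.38 ± 0.14 (adjusted p = 0.0251), a call lost under both rescalings and without E12.5 replicate 2 or either P0 library (adjusted p up to 0.798). Tsc1, which stabilises Tsc2, was at 30.0 and 32.1 TPM at E12.5, 32.5 and 33 at E14, 40.6 and 42 at E15.5, 57.9 and 39.4 at E17, and 24 and 28.2 at P0. Both P0 libraries lay below all others, it fell by 0.85 ± 0.15 (adjusted p = 0.0013) from E17 to P0, and the change over the span was -0.25 ± 0.15 (adjusted p = 0.151). Tsc2, which turns off the GTPase Rheb, was at 21 and 23.5 TPM at E12.5, 21.2 and 21.6 at E14, 22.4 and 21.9 at E15.5, 30.1 and 22.9 at E17, and 23.7 and 24.6 at P0, a change of 0.12 ± 0.12 (adjusted p = 0.394). The log2 ratio of Tsc1 to Tsc2 was 0.46 ± 0.039 at E12.5, 0.87 ± 0.057 at E15.5 and 0.10 ± 0.12 at P0 (exact permutation p = 0.00317, adjusted p = 0.00635). For the Mtor/Rptor log2 ratio the exact permutation test gave exact p = 0.0688, adjusted p = 0.086, and an adjusted p of 0.0395 without E17 replicate 1.

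The Rps6k family holds the S6 kinases and the related RSK and MSK kinases of the ERK pathway, and 2 of its 7 genes rose and 2 fell. The S6 kinase gene Rps6kb1 was at 65.8 and 60.1 TPM at E12.5, 58.6 and 62.9 at E14, 52 and 51.2 at E15.5, 53.7 and 49.3 at E17, and 48.8 and 59.4 at P0, a change of -0.22 ± 0.10 (adjusted p = 0.0691). Rps6kb2 was at 16.8 and 17.3 TPM at E12.5, 16.2 and 16.9 at E14, 11.8 and 11 at E15.5, 16.1 and 10.9 at E17, and 15 and 12.3 at P0, a change of -0.31 ± 0.16 (adjusted p = 0.0946), with 24.6% of its exonic bases shared. Neither passed the test, and their ratio did not either (exact permutation p = 0.739, adjusted p = 0.739). Of the RSK genes, Rps6ka1 was at 7.73 and 7.88 TPM at E12.5, 6.68 and 5.90 at E14, 3.58 and 3.83 at E15.5, 4.70 and 4.06 at E17, and 5.17 and 4.03 at P0 and fell by 0.66 ± 0.13 (adjusted p = 0.000561), a call lost after quantile normalization (adjusted p up to 0.532). Rps6ka3, mutated in Coffin-Lowry syndrome in people, was at 61.2 and 57.1 TPM at E12.5, 53.9 and 55.3 at E14, 43.4 and 41.8 at E15.5, 51.5 and 42.4 at E17, and 37.8 and 46 at P0. It fell by 0.49 ± 0.11 (adjusted p = 0.0019), a call that median-of-ratios scaling moved to adjusted p = 0.0501. Rps6ka2 was at 22.3 and 24.1 TPM at E12.5, 23.7 and 23.4 at E14, 20.4 and 18.6 at E15.5, 26.4 and 16.3 at E17, and 17.5 and 17.3 at P0, a change of -0.39 ± 0.17 (adjusted p = 0.0506), and its ratio to Rps6ka3 did not pass (exact permutation p = 0.71, adjusted p = 0.739). Rps6ka5, the MSK1 kinase that acts on chromatin, was at 9.16 and 10.4 TPM at E12.5, 12 and 11.9 at E14, 16.7 and 16.6 at E15.5, 17.7 and 15.3 at E17, and 12.8 and 15.1 at P0 and rose by 0.47 ± 0.12 (adjusted p = 0.00302). Rps6kc1 rose by 0.34 ± 0.11 (adjusted p = 0.0126), a call lost without E12.5 replicate 1 (adjusted p up to 0.106). In the authors' deposited table, Rps6kb1, Akt1, Akt2 and Tsc1 are the members marked as translation-associated.

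The Gsk3 paralogs, kinases of Wnt and insulin signalling that also phosphorylate tau, drew closer together. Gsk3a was at 115 and 118 TPM at E12.5, 126 and 116 at E14, 145 and 145 at E15.5, 189.5 and 158 at E17, and 219 and 194 at P0 and rose by 0.81 ± 0.10 (adjusted p = 9.35e-06), and shares 28.3% of its exonic bases with a gene on the opposite strand. Gsk3b was at 393 and 393 TPM at E12.5, 389 and 409 at E14, 398 and 414 at E15.5, 409 and 323 at E17, and 305 and 345 at P0. It fell by 0.28 ± 0.11 (adjusted p = 0.0326), a call lost after median-of-ratios scaling and without either E12.5 library or P0 replicate 1 (adjusted p up to 0.996). The log2 ratio of Gsk3a to Gsk3b moved by 1.09 (exact permutation p = 0.00317, adjusted p = 0.00635). Cdk5 (ENSMUSG00000028969, reverse strand, chr5:24418241-24423530), the neuronal kinase of migration that cyclins do not drive, was at 49.2 and 54.5 TPM at E12.5, 65 and 63.6 at E14, 83.9 and 84.8 at E15.5, 90.5 and 87.2 at E17, and 123 and 111 at P0. Its stage mean went up at each step, the E15.5 and E17 libraries were above those of E14, and it rose by 1.16 ± 0.083 (adjusted p = 1.31e-07) over the span.

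The TSC22 domain genes caught by the pattern also split. Tsc22d1 was at 145 and 145 TPM at E12.5, 169 and 172 at E14, 239 and 240.1 at E15.5, 278 and 256 at E17, and 220.1 and 229.5 at P0 and rose by 0.63 ± 0.070 (adjusted p = 6.03e-06). Tsc22d4 was at 37.1 and 40.9 TPM at E12.5, 40.4 and 39 at E14, 20.3 and 19.4 at E15.5, 19.2 and 14.8 at E17, and 22.2 and 20.1 at P0 and fell by 0.85 ± 0.12 (adjusted p = 5.16e-05). Its fall from E14 to E15.5 was 0.97. Tsc22d3 rose by 0.31 ± 0.082 (adjusted p = 0.00438), and Tsc22d2 did not pass. Without these 4 genes, 51 of 70 tested members were called, 30 higher and 21 lower.

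The steps between neighbouring stages held different numbers of calls. From E12.5 to E14 only 5 members were called, all upward, against 8.73% of all tested genes (3.95% higher and 4.78% lower): Cdk5, Mapk8, Prkar1b, Prkce and Prkcz. Their changes at that step were 0.31, 0.28, 0.73, 0.61 and 0.50 log2 units, in that order. The direction of calls depended on the setting. With median-of-ratios scaling 11 rose and 0 fell, against 12.2% of all tested genes called. With quantile normalization 12 rose and 1 fell, against 14.9%, and with a replicate block 3 rose and 0 fell, against 7.64%. With library weights 18 rose and 8 fell, against 39.9%. With only the libraries of the 2 stages 16 rose and 8 fell, against 41%. From E14 to E15.5, 21 members rose and 14 fell, against 51.7% of all genes called, 18.4% higher and 33.3% lower. The largest rise among members at that step was that of Prkar1b, 2.24, and Tsc22d4 had the largest fall and fell by 0.97. This is also the step at which the erythroid, choroid plexus and meningeal markers dropped. From E15.5 to E17, 9 members were called, all upward, against 25.0% of all genes (14.4% higher and 10.6% lower), and 5 of them were PKC genes. From E17 to P0, 17 rose and 14 fell, against 41.7% of all genes, 12.9% higher and 28.8% lower.

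Counts at the 2 steps that use E17 rested on its libraries. From E15.5 to E17 they were 9 higher and 6 lower without replicate 1, against 12.2% and 17.5% of all genes, and 35 higher and 0 lower without replicate 2, against 35.0% and 17.3% of all genes. From E17 to P0 they were 24 higher and 9 lower without replicate 1, against 17.5% and 24.7% of all genes, and 13 and 30 without replicate 2, against 17.4% and 44.9% of all genes. By gene, 7 of the 9 calls at the first step held without either library, the exceptions being Mapk9 and Prkce. At the second step 21 of 31 held, and the 10 lost included Map2k1, Map2k7, Map4k4, Mapk11, Mapk8ip1, Pik3c2b, Pik3r2, Prkaa2 and Rptor. Prkar1b and Prkcb were called at both steps under each of these fits, and also with only the libraries of the stages compared. The split of calls also moved with scaling: after median-of-ratios scaling it was 30 higher and 10 lower from E14 to E15.5, against 26.0% and 25.8% of all genes. It was 10 and 3 from E15.5 to E17, against 16.6% and 12.3%, and 25 and 8 from E17 to P0, against 21.3% and 22.7%.

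By the shape of their stage means, 18 members went up at all 4 steps, among them Prkar1b, Prkar2b, Prkacb, Pkia, Prkce, Prkcz, Cdk5 and Pik3r1. Values went down at all 4 steps in Prkag1, Map4k4, Mapk14 and Mapk1ip1l. The highest stage was P0 for 27 members, E12.5 for 21, E17 for 17, E14 for 5 and E15.5 for 4. These shapes rest on means of 2 libraries and carry no test. They were not counted over all tested genes, so they cannot be set against the whole table. Of the 20 ratios of related genes tested, 15 had an adjusted p under 0.05 in the exact permutation test, with pairs chosen while earlier results of these data were known.

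Other genes of these pathways, which are not in the set, gave the following between E12.5 and P0, against 27.1% of all genes higher and 51.0% lower. Of 20 genes of cyclic AMP signalling 10 rose and 5 fell, with a median change of 0.26. The list includes anchors of PKA and proteins that act below it. Akap7, an anchor that places PKA at membranes, was at 8.18 and 7.94 TPM at E12.5, 10.2 and 10.5 at E14, 50.2 and 55.1 at E15.5, 95.5 and 115 at E17, and 197 and 211 at P0 and rose by 4.50 ± 0.10 (adjusted p = 2.68e-11). Creb1, a transcription factor that PKA phosphorylates, was at 242 and 223 TPM at E12.5, 219 and 233 at E14, 185 and 185 at E15.5, 167 and 171 at E17, and 94.7 and 116 at P0 and fell by 1.14 ± 0.10 (adjusted p = 4.99e-07). Among 11 genes that activate PKC or clear its lipid signal, 6 rose and 1 fell, with a median of 0.38. Gnaq, the G protein that turns on phospholipase C, rose by 1.21, and the phospholipase gene Plcb3 fell by 0.94. Of 18 Ras and Raf genes, upstream of ERK, 8 rose and 5 fell, with a median of 0.063. The adaptor Gab1 fell by 1.87.

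Of 23 genes of the mTOR complexes and their inputs, 8 rose and 9 fell, with a median of 0.044. Camkk1, a kinase that turns on AMPK, rose by 1.70, and the lipid phosphatase gene Inppl1 fell by 2.44. Of 11 targets of mTOR and S6 kinases 2 rose and 5 fell, with a median of -0.25, close to that of all tested genes. Eif4ebp2, the translation repressor that mTORC1 inactivates, was at 467 and 509.6 TPM at E12.5, 406 and 423 at E14, 304 and 279.5 at E15.5, 419 and 244 at E17, and 153 and 165 at P0 and fell by 1.61 ± 0.18 (adjusted p = 6.94e-06). Ulk2, an autophagy kinase, rose by 1.11. Of 13 genes listed as partners or substrates of Cdk5, 9 rose and 2 fell, with a median of 0.98. The activators Cdk5r1 and Cdk5r2 were not among these 13. Mapt, which encodes tau, rose by 3.58, and Nde1, a centrosome protein of dividing progenitors, fell by 3.68. The neuron and progenitor markers given above moved over the same stages, and their part in these counts was not tested.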

How the data were processed

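RNA of whole neocortex was measured in 10 libraries, 2 at each of 5 stages. The deposited table gives TPM per gene and library, and the submitters' processing notes name STAR, Subread and the build GRCm38.p5, without versions, roles or settings. TPM divide by transcript length and library total, so a few very abundant transcripts lower all others, and they keep no depth.

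Columns were matched to samples by name. Of 6147 genes the 6048 whose mean reached 1 TPM were kept. A limma fit (3.58.1, under R 4.3.3) of log2(TPM + 1) gave each stage its own mean, with 5 residual degrees of freedom, a variance trend and Benjamini-Hochberg adjustment over all tested genes, called under 0.05. Differences are later minus earlier and ± on them is the SE, while ± on levels and shares is the SD of 2 libraries. Ratios of related genes were tested with an exact permutation F test over all 945 ways to split 10 libraries into 5 pairs. It asks whether the ratio differed among the 5 stages. The smallest p is 0.00106, and p was adjusted over 20 pairs. Scripts were tested on simulated data.

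The members, the related pairs and the gene lists were chosen with earlier results of these data known, and no list was tested as a set. Most called members with the largest rise or fall of a role, and most genes of tested pairs, have the value of every library. So do Mtor, Rptor, Cdk5, Pkia, Tsc1 and Tsc2. Map4k4, Map4k5 and Pik3r4 are given at E12.5 and P0, and Prkaa1 as a range. Of the other pathway lists, genes with the largest rise or fall are named, most of them by change alone. A few genes and pairs that enter the counts are not reported here. Replicate numbers did not pair libraries, since correlations of same-numbered deviations lay between -0.37 and 0.11. Positions come from GENCODE M21 (GRCm38) for all 75 members, and promoter windows from RefSeq (GRCm38.p6) for 60. Of the members, 25 share exonic bases with another gene, 9 of them over 10%. Alternatives were the pseudocount, the filter, 2 rescalings, the variance trend, library weights, libraries of the 2 stages alone, a replicate block and leaving out each library.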

Additional observations from a re-analysis of the deposited data

How the results depend on the processing

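The count of members called from E12.5 to P0 was 53 to 63 with all libraries in 10 settings and 43 to 63 when 1 library was left out, and that of the F test was 50 to 66 and 44 to 70. Single steps moved more. From E12.5 to E14 the count of 5 became 11 with median-of-ratios scaling, 13 with quantile normalization, 3 with no variance trend, 26 with library weights, 24 with only the libraries of the 2 stages, 3 with the replicate block, and 2 to 16 without 1 library. From E14 to E15.5 the count of 35 became 56 with weights and 56 with the 2 stages alone, and 23 to 52 without 1 library. From E15.5 to E17 the count of 9 became 14 with quantile normalization, 4 with weights and 2 with the 2 stages alone, and 3 to 35 without 1 library. From E17 to P0 the count of 31 became 11 with weights and 12 with the 2 stages alone, and 20 to 43 without 1 library. The share of all tested genes called moved the same way. From E12.5 to E14, 8.73% became 12.2% with median-of-ratios scaling and 14.9% with quantile normalization. It became 39.9% with weights and 41% with the 2 stages alone. With these last 2 settings, 51.7% became 76.1% and 75.6% from E14 to E15.5. Likewise 41.7% became 18.9% and 18.6% from E17 to P0. Member counts moved both up and down with fewer libraries, which also leave fewer degrees of freedom, and the cause was not tested. The replicate block ended 2 calls from E12.5 to E14, Cdk5 and Mapk8, and the replicate numbers do not pair libraries.

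Signs over E12.5 to P0 turned with scaling for members near 0. With median-of-ratios scaling the change became 0.0084 for Map2k7, 0.061 for Mapk7, 0.10 for Mtor, 0.086 for Pik3c3, 0.13 for Pik3ca, 0.048 for Prkar2a, 0.12 for Prkcd, 0.051 for Rps6kb1 and 0.020 for Tsc1. With quantile normalization it became 0.040 for Map2k7, 0.042 for Mapk7, 0.21 for Mtor, 0.20 for Pik3c3, 0.11 for Pik3ca, 0.28 for Pik3cb, 0.28 for Prkcd, 0.067 for Rps6kb2 and 0.032 for Tsc1. Both settings remove the median shift of all genes by construction. Without 1 library the change ran from -0.050 to 0.091 for Map4k3, -0.017 to 0.21 for Prkaa1 and -0.029 to 0.23 for Prkaca. It ran from -0.19 to 0.36 for the Rps6kb1/Rps6kb2 log2 ratio and from -0.047 to 0.25 for the Rps6ka2/Rps6ka3 log2 ratio. No other sign turned among the reported changes from E12.5 to P0 or the reported ratios under these settings. Depth is not given by TPM, so 2 libraries a stage set the precision.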
